A study of Homo sapiens with 31 samples.

Results

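Ribosome footprints of cells that lack EIF4A1 were compared with those of naive cells, both without PP242. The comparison used 4 of the 31 libraries of the series, chosen by their labels: 2 ribosome profiling libraries labelled EIF4A1 KO and DMSO, and 2 labelled naive and DMSO. All came from HEK293 T-REx, a human embryonic kidney line built for inducible transgene expression, grown in DMEM with serum. The naive cells carry no knockout per the labels, and the sources used here do not say whether the EIF4A1 KO cells are 1 clone or several. Beside the footprints stand 2 RNA-seq libraries each of naive and EIF4A1 KO cells, labelled without a treatment, and 2 DMSO ribosome profiling libraries of EIF4A2 KO cells. Pulldown and input libraries of cells expressing eIF4A1 or eIF4A2 with a streptavidin-binding peptide (SBP) were also used. For eIF4A1 there were 2 such experiments, 1 without siRNA and 1 after 72 h of control siRNA. The wider series asks how eIF4A1 takes part in repression of translation through LARP1 when mTORC1 is inhibited, and the comparison described here gives its starting state, with no inhibitor added.

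As background, eIF4A1 is a DEAD-box RNA helicase. With the cap-binding protein eIF4E and the scaffold eIF4G it forms the eIF4F complex, which helps the small ribosomal subunit to load onto capped mRNAs and to scan their 5' leaders. eIF4A2 is a close paralog that can also enter eIF4F. In ribosome profiling, RNase I digests the RNA that ribosomes do not cover, and the protected fragments are sequenced, so that the number of footprints on an mRNA reflects its RNA level and how many ribosomes it carries.

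The files hold raw counts per Ensembl transcript and do not pair transcripts with genes, nor do the gene tables used here (assembly GRCh38.p14). For that reason no gene is named, the EIF4A1 level was not checked against the labels, and markers of the cell line were not examined. Reads that fall in several transcripts of a gene were counted in each of them. Transcripts with equal counts were merged (77343 distinct transcripts), and a rule meant to keep 1 transcript per locus left 35499 transcripts. Some loci still have more than 1, and without gene names their number is not known. Counts of transcripts are therefore not counts of genes. Transcripts of near-identical genes can share reads, and their separate values are uncertain. Over the kept transcripts, counts totalled 5510071 and 6390350 in the naive footprint libraries and 2748706 and 2515013 in the EIF4A1 KO libraries. The RNA-seq libraries held between 19706862 and 21631521 counts, so low transcripts were measured more precisely in RNA than in footprints. The 2 libraries of a group differed by more than counting error (chi-square per degree of freedom 1.57 for naive and 1.25 for EIF4A1 KO footprints), so none was treated as a second copy of another. The labels do not say whether they came from separate cultures, so p-values measure the spread between these libraries, which may be technical. edgeR largely pools that spread over transcripts (92.7 prior degrees of freedom in the footprint fit), so it is not the spread of 1 transcript alone. All values are relative to the other transcripts of a library, so a change in total translation, in cell number or in RNA per cell cannot be told apart.

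Many of the tested transcripts (25.1%) differed in footprint level between EIF4A1 KO and naive cells, in both directions and mostly by small amounts. Of 18122 transcripts tested, 2217 (12.2%) were higher in EIF4A1 KO cells and 2331 (12.9%) were lower, together 4548, by edgeR's quasi-likelihood test at a Benjamini-Hochberg adjusted p under 0.05. The median log2 change was 0.53 among the higher transcripts and -0.64 among the lower ones. Changes of more than 1 log2 unit (a doubling or halving) were found in 247 higher transcripts (1.36%) and in 552 lower ones (3.05%). Over all tested transcripts the median log2 change was -0.00, with a 5th percentile of -0.90 and a 95th percentile of 0.71. Among the 7423 transcripts with at least 50 counts in each of the 4 libraries, the median absolute log2 difference was 0.23 between the group means, 0.09 between the 2 naive libraries and 0.11 between the 2 EIF4A1 KO libraries. DESeq2's Wald test on the same transcripts called 1810, of which 946 were higher and 864 lower. The number of edgeR calls depended on having both libraries of a group: 2546 were called without EIF4A1 KO replicate 1, and 2801 without naive replicate 2. No transcript called with all 4 libraries changed its direction when one library was left out.

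The plot of change against level shows that the calls followed the depth of the transcripts. Transcripts were divided into 10 equal groups by mean footprint level. In the lowest group 4.08% were called higher and 3.75% lower, and in the highest group 25.6% and 28.2%. The most abundant transcripts, 112 with a mean above 10 on the log2 scale of CPM, counts scaled to the library total, had more lower than higher calls. In that group 64 were lower (57.1%) and 15 higher (13.4%), with a median log2 change of -0.16 and changes from -2.25 to 0.47. In RNA, 56 of the 112 were lower and 21 higher, with a median log2 change of -0.06.

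**Figure D1:**
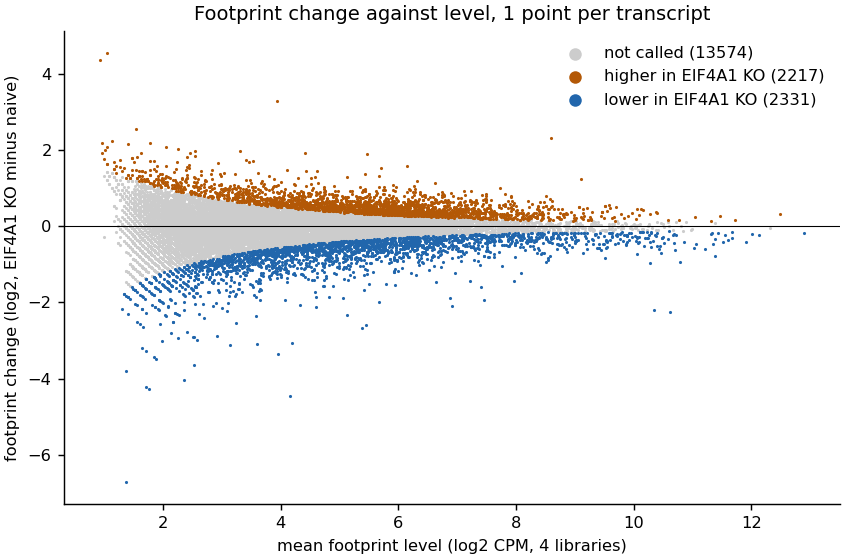
Log2 change of footprints in EIF4A1 KO against naive cells (vertical axis) by mean footprint level in log2 CPM over the 4 libraries (horizontal axis), 1 point per tested transcript. Orange points mark the 2217 transcripts called higher and blue points the 2331 called lower; small changes were called only at high levels.

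Over all calls the log2 changes reached 4.56 and -6.73. The largest changes given by transcript ID were chosen among calls of at least 10 CPM in the higher group whose groups did not overlap (2008 higher and 1934 lower transcripts met these conditions). ENST00000254528.4 had 3.88 and 3.69 CPM of footprints in naive cells and 46.1 and 28.4 CPM in EIF4A1 KO cells. The 2 groups were far apart, and the KO libraries differed more from each other than the naive ones. The log2 change was 3.30 ± 0.23 (SE, n = 2 and 2; adjusted p = 7.64e-23, edgeR). Its RNA was at 4.22 and 4.41 CPM in naive and 35.2 and 37.6 CPM in EIF4A1 KO cells, a log2 change of 3.08 ± 0.11 (SE; adjusted p = 6.69e-21, edgeR). Footprints and RNA thus rose by similar amounts in this transcript. The footprint change minus the RNA change was 0.22 ± 0.29 (SE; adjusted p = 0.739, edgeR interaction of assay and genotype). In EIF4A2 KO cells its footprints were at 3.83 and 2.06 CPM, at or below the naive level.

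ENST00000323963.10 was an abundant transcript whose footprints rose more than its RNA. Its footprints were at 153.2 and 126.6 CPM in naive cells and at 711.5 and 680.0 CPM in EIF4A1 KO cells, with both KO libraries over 4 times the higher naive one. The log2 change was 2.32 ± 0.07 (SE, n = 2 and 2; adjusted p = 9.63e-52, edgeR), or 4.99-fold. RNA was at 307.3 and 308.1 CPM in naive and at 605.8 and 604.4 CPM in EIF4A1 KO cells, a log2 change of 0.98 ± 0.03 (SE; adjusted p = 1.59e-21, edgeR). The footprint change exceeded the RNA change by 1.33 ± 0.07 on the log2 scale (SE; adjusted p = 4.02e-28, edgeR interaction). In EIF4A2 KO cells the footprints of this transcript were lower than in naive cells, at 58.3 and 59.2 CPM. Without gene names, it was not checked whether this transcript belongs to the gene knocked out there. EIF4A1 KO exceeded EIF4A2 KO by 3.56 ± 0.08 on the log2 scale (SE; adjusted p = 6.53e-77, edgeR over the 6 DMSO libraries).

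Among the falling transcripts, ENST00000402252.6 was nearly lost from both assays in EIF4A1 KO cells. Its footprints numbered 111 and 185 counts in naive libraries (20.5 and 29.7 CPM) and 3 and 3 counts in EIF4A1 KO libraries (1.09 and 1.18 CPM). Summed over libraries, the KO level was 4.46% of the naive level, with an exact 95% interval of 1.62% to 9.82% that covers counting error only. The log2 change was -4.45 ± 0.36 (SE; adjusted p = 1.6e-18, edgeR). This SE was derived from edgeR's test statistic and implies a narrower range than the exact interval. RNA counts were 921 and 1012 in naive and 1 and 3 in EIF4A1 KO libraries, so the KO level was 0.216% of the naive level (exact 95% interval 0.0589% to 0.555%). The fitted RNA change of so few counts depends on the prior count of the fit. The share of footprints left was larger than the share of RNA left, and the 2 changes differed (4.23 ± 1.03 on the log2 scale, SE; adjusted p = 0.00232, edgeR interaction). In EIF4A2 KO cells the footprints stood at 32.1 and 31.8 CPM, above both naive libraries.

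ENST00000255531.8 was low in both knockout lines. Its footprints were at 21.1 and 21.8 CPM in naive cells, with 114 and 136 counts, and at 1.09 and 3.16 CPM in EIF4A1 KO cells, with 3 and 8 counts. The log2 change was -3.35 ± 0.32 (SE; adjusted p = 6.34e-15, edgeR). Summed over libraries, the KO level was 9.68% of the naive level (exact 95% interval 4.77% to 17.6%, counting error only). That interval is wider than the SE implies. Its RNA was at 3.34 and 3.37 CPM in naive and 0.444 and 0.305 CPM in EIF4A1 KO cells, a log2 change of -3.14 ± 0.34 (SE; adjusted p = 3.83e-09, edgeR). Footprints and RNA fell by similar amounts, with a difference between the changes of -0.25 ± 0.68 (SE; adjusted p = 0.896, edgeR interaction). EIF4A2 KO cells had 1.21 and 1.12 CPM of footprints, and the difference between the 2 knockout lines did not pass the test (0.82 on the log2 scale, adjusted p = 0.361, edgeR).

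**Figure D2:**
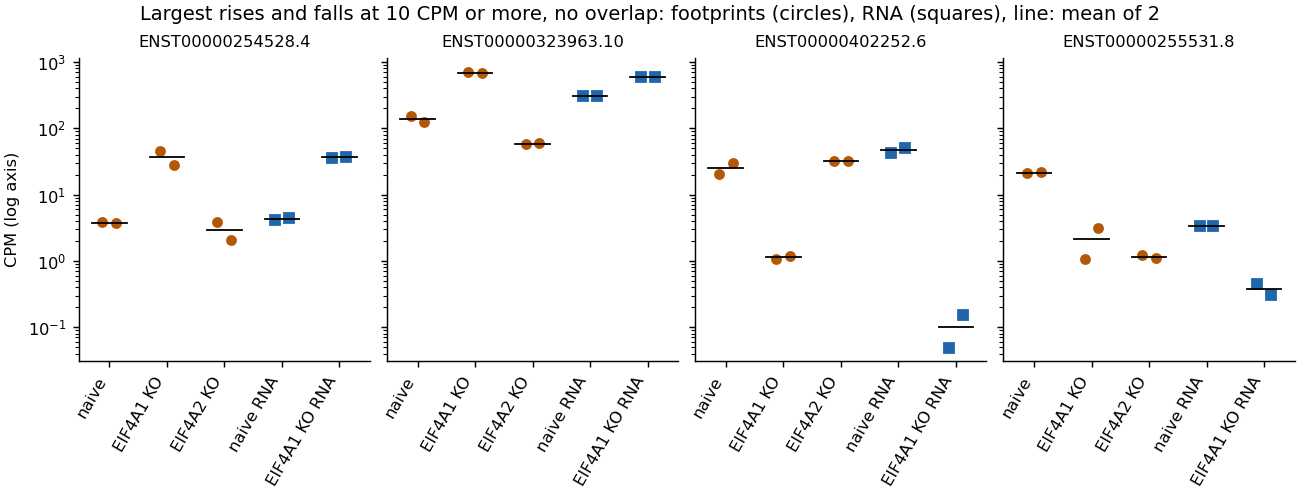
Levels in CPM (log axis) of the 2 transcripts with the largest rise and the 2 with the largest fall among calls of at least 10 CPM in the higher group and groups that do not overlap, 1 point per library, for footprints (orange circles) and RNA (blue squares); black lines are means of 2 libraries. In ENST00000254528.4 and ENST00000255531.8 the fitted changes of footprints and RNA were close, in ENST00000255531.8 on few counts in EIF4A1 KO libraries. In ENST00000323963.10 footprints rose from about 140 to about 700 CPM while RNA went from about 308 to about 604 CPM.

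RNA levels differed between the same lines, which bears on how the footprint changes are read. In the RNA-seq libraries, 9390 of 25744 transcripts were called (36.5%), of which 4653 (18.1%) were higher and 4737 (18.4%) lower in EIF4A1 KO cells. DESeq2's Wald test called 5441. Of the 2217 transcripts with higher footprints, 1319 also had higher RNA, 105 had lower RNA, 790 had no RNA call and 3 were not tested in RNA. Of the 2331 with lower footprints, 1236 also had lower RNA, 197 had higher RNA, 870 had no RNA call and 28 were not tested. Transcripts that were higher in both assays had a median log2 change of 0.55 in footprints and 0.42 in RNA. Those lower in both had medians of -0.65 and -0.41. In the 790 with higher footprints and no RNA call, the medians were 0.51 in footprints and 0.06 in RNA, and in the 870 with lower footprints and no RNA call they were -0.65 and -0.05. The 2 assays were called in opposite directions in few transcripts, of which the 105 with higher footprints had a median RNA change of -0.19 and the 197 with lower footprints one of 0.25. Among the larger changes, the RNA was called the same way in 143 of the 247 transcripts that rose by over 1 log2 unit and in 301 of the 552 that fell by as much.

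In bins of RNA change, the median footprint change had the sign of the median RNA change and was closer to 0. The bins were formed on the measured RNA change, and this choice by itself draws the footprint medians towards 0, so the sizes of the 2 changes are not compared here. Transcripts whose RNA was higher by 0.5 to 1 log2 units (1322) had a median RNA change of 0.63 and a median footprint change of 0.38, and 79.2% of them were also above 0 in footprints. Those whose RNA was lower by the same amount (1079) had medians of -0.64 and -0.43, with 84.0% also below 0. Beyond a 1 log2 unit fall, the 229 transcripts down to -2 had a median RNA change of -1.26 and a median footprint change of -0.85. In the 143 with an RNA rise of 1 to 2 log2 units the medians were 1.14 and 0.84. Single transcripts followed the sign less often near 0: it was shared by 58.5% of the 4910 with RNA between -0.25 and 0 and by 58.1% of the 5274 between 0 and 0.25. In the next bins, out to 0.5 on either side, it was shared by 72.5% of 2270 below 0 and 69.0% of 2688 above 0. Over 17976 transcripts with both values, Spearman's rho was 0.44, and 0.53 over 7414 with at least 50 footprint counts in each library. These transcripts share the libraries of each assay and are not independent replicates.

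**Figure D3:**
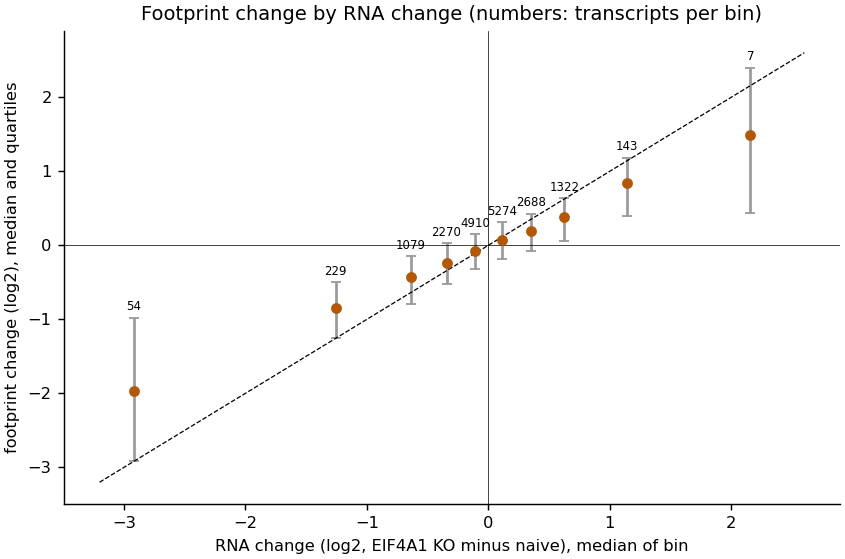
Median footprint change (points; bars span the quartiles) in bins of RNA change, both as log2 EIF4A1 KO minus naive; numbers give the transcripts per bin and the dashed line marks equal changes. The medians follow the sign of the RNA change and lie closer to 0 than the dashed line, from -1.96 at an RNA change of -2.92 to 0.84 at 1.14.

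A direct test of footprints beyond RNA, the interaction of assay and genotype over the 8 libraries, called fewer transcripts. Of 25458 tested, 2414 were called (9.48%), 953 (3.74%) with a footprint change above the RNA change and 1461 (5.74%) with one below it. Without EIF4A1 KO footprint replicate 1 the number was 1512, of which 381 were higher. Of the 2217 transcripts with higher footprints, 559 were also called higher beyond RNA and 44 lower. Of the 2331 with lower footprints, 854 were called lower beyond RNA and 38 higher. These counts share the footprint libraries and describe the overlap only. The split of interaction calls moved with the way libraries were scaled. The median interaction over all tested transcripts was -0.04, and with DESeq2 size factors -0.02, with 1041 higher and 1322 lower calls. Among transcripts tested in footprints and not called there, 527 were lower beyond RNA and 326 higher; the remaining interaction calls were of transcripts that did not pass the footprint filter.

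The footprint changes were ordered by how strongly an mRNA had been captured with SBP-eIF4A1 in 1 of 2 pulldown experiments with that protein. In that experiment, made without siRNA, SBP-eIF4A1 was captured on streptavidin beads and eluted with biotin, and its RNA was sequenced beside the input (2 libraries each). Capture is the log2 ratio of pulldown over input from edgeR. It includes RNA that binds the beads themselves, since no pulldown without a tagged protein was used here. The pulldown libraries are separate from the footprint libraries, and 17893 of the tested transcripts had a capture value. These were divided into 5 equal groups by capture. In the group captured least (3579, median capture -1.16), 967 were higher in EIF4A1 KO footprints (27.0%) and 277 lower (7.74%), with a median log2 change of 0.19. In the group captured most (3579, median capture 1.01), 126 were higher (3.52%) and 789 lower (22.0%), with a median of -0.24. The 3 groups between had medians of 0.08, 0.00 and -0.08. RNA changes had the same order over a narrower range, with medians of 0.06, 0.05, 0.03, 0.01 and -0.05 from the lowest to the highest group. The change of footprints beyond RNA had medians of 0.10, 0.01, -0.03, -0.09 and -0.19.

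The same order stood in each library. In the group captured least, the median log2 CPM of footprints was 4.66 and 4.61 in naive cells and 4.81 and 4.79 in EIF4A1 KO cells. In the group captured most it was 3.56 and 3.57 in naive cells and 3.31 and 3.32 in EIF4A1 KO cells. The KO libraries were above both naive libraries in the first and below both in the second. Levels of different transcripts are not per length here, so the gap between capture groups is compared only between libraries. The highest minus the lowest capture group gave -1.10 and -1.04 in naive cells and -1.50 and -1.48 in EIF4A1 KO cells. EIF4A2 KO cells gave -1.10 and -1.16, close to the naive values. In RNA the gap was -0.71 and -0.71 in naive and -0.82 and -0.82 in EIF4A1 KO cells. The median footprint change in the highest group minus that in the lowest was -0.43, against -0.11 in RNA. With 2 libraries against 2, an exact permutation test cannot reach a p under 0.05, so no p-value is given for this contrast.

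The other pulldowns gave a mixed picture. By capture with SBP-eIF4A2, which ranked transcripts much like SBP-eIF4A1 (Spearman's rho 0.85 across transcripts), the footprint medians from the lowest to the highest capture group were 0.15, 0.06, -0.01, -0.06 and -0.18. In the separate SBP-eIF4A1 pulldown made after 72 h of control siRNA, the medians were -0.06, 0.03, 0.05, 0.02 and -0.05, with no steady order. The 2 SBP-eIF4A1 experiments ranked transcripts differently (rho 0.16). The relation of footprint change to capture was therefore found with the pulldowns made without siRNA and not with the one made after it. Across transcripts, rho with the footprint change was -0.31 for SBP-eIF4A1, -0.24 for SBP-eIF4A2 and 0.01 for SBP-eIF4A1 after control siRNA (17893, 18007 and 17859 transcripts). Over transcripts with at least 50 footprint counts in each library it was -0.35, -0.24 and 0.16 (7413, 7417 and 7413 transcripts), so the value after control siRNA had the opposite sign there. These are descriptions over transcripts that share libraries.

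Long transcripts were higher in EIF4A1 KO footprints more often than short ones. The files give a length per transcript without its unit, so it is used only to order transcripts. Transcripts of different length at 1 locus can share reads, so the classes do not separate short from long mRNAs cleanly. Among the 2545 transcripts of length over 800, 829 were higher (32.6%) and 193 lower (7.58%), with a median log2 change of 0.20. Among the 4235 over 400 and up to 800, 687 were higher (16.2%) and 535 lower (12.6%), with a median of 0.04. In the 3 shorter classes lower calls were more frequent than higher ones. Over 200 and up to 400 there were 347 higher (9.11%) and 642 lower (16.9%), over 100 and up to 200 there were 234 (5.77%) and 559 (13.8%), and up to 100 there were 120 (3.45%) and 402 (11.6%). Their medians were -0.06, -0.06 and -0.07. The longest class also had the highest levels, with a median of 4.86 log2 CPM in naive replicate 1 against 2.64 in the shortest, and the part of level in the shares called was not tested. RNA medians were -0.01, 0.00, 0.01, 0.02 and 0.10 from the shortest to the longest class, so the longest class had the highest median in RNA as well. Beyond RNA, the medians were -0.07, -0.08, -0.08, 0.01 and 0.10.

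The same shift was seen in the share of each library's counts. Transcripts of length over 800 took 16.6% and 16.6% of footprint counts in the naive libraries, 19.9% and 19.4% in those of EIF4A1 KO and 17.4% and 17.3% in those of EIF4A2 KO. Those up to 100 took 7.05% and 7.06% in naive, 6.52% and 6.43% in EIF4A1 KO and 6.94% and 6.86% in EIF4A2 KO cells. The EIF4A1 KO libraries lay outside both other groups in each class. In RNA the longest class took 18.9% and 18.8% in naive and 20.4% and 20.2% in EIF4A1 KO cells. The median level of the longest minus the shortest class, in log2 CPM, was 2.22 and 2.21 in naive, 2.50 and 2.46 in EIF4A1 KO and 2.31 and 2.29 in EIF4A2 KO footprints. The EIF4A2 KO footprints are compared with the same naive libraries, so the 2 sets of differences are not independent.

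**Figure D4:**
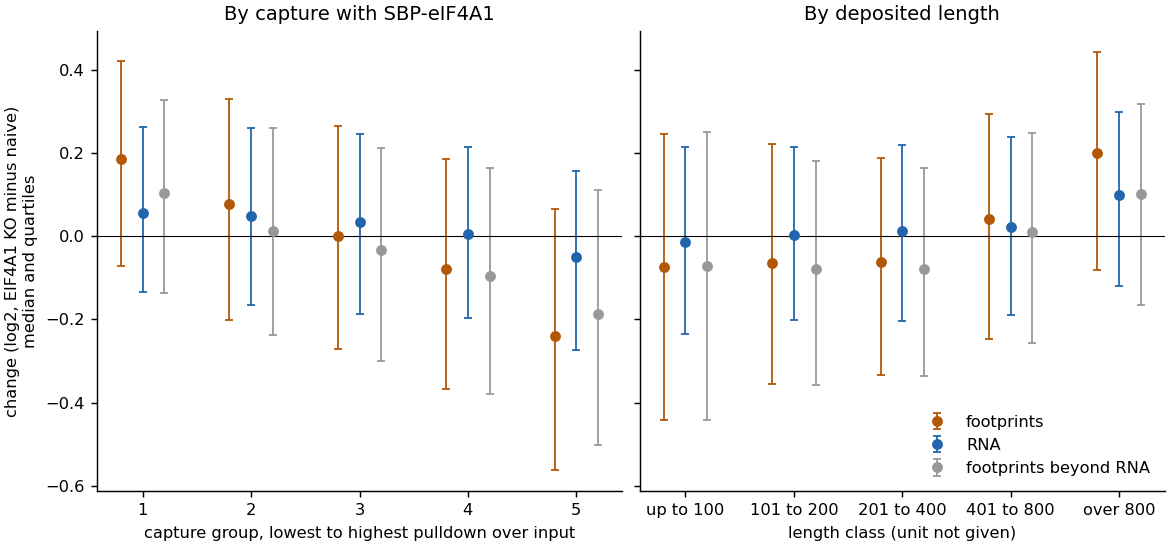
Median log2 change (points; bars span the quartiles) of footprints, RNA and footprints beyond RNA in EIF4A1 KO against naive cells, by 5 equal groups of capture with SBP-eIF4A1 (left) and by deposited length (right). Footprint medians go from 0.19 to -0.24 over the capture groups and from -0.07 to 0.20 over the length classes.

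Length and capture are related, and the order by capture was seen within every length class, with a break at lengths up to 100. There, capture groups 2 and 3, counted from the lowest, had footprint medians of -0.01 and 0.00. Capture was lower in longer transcripts (rho -0.26 across transcripts), with a median length of 500 in the lowest and 191 in the highest capture group. Within each length class the footprint medians went from above 0 in the lowest capture group to below 0 in the highest. They went from 0.10 to -0.22 at lengths up to 100, from 0.09 to -0.23 over 100 and up to 200, from 0.09 to -0.25 over 200 and up to 400, from 0.16 to -0.26 over 400 and up to 800 and from 0.32 to -0.26 over 800. The order by length was not seen in every capture group: the highest capture group had nearly the same median at every length. In the lowest capture group the median was larger over 800 than in the shorter classes. The long and weakly captured transcripts (1075) had 538 higher and 52 lower calls, and the short and strongly captured ones (922, up to 100) had 16 higher and 179 lower calls. Over all 18122 tested transcripts, 2217 (12.2%) were higher and 2331 (12.9%) lower. Calls were more frequent at higher levels, and the longest class had higher levels than the shortest. The part of level in these counts was not tested. Of the transcripts with opposite calls in the 2 assays, the 105 with higher footprints and lower RNA had a median length of 850 and a median capture of -0.99. The 197 with lower footprints and higher RNA had a median length of 353 and a median capture of 0.43.

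Footprint changes were also not spread evenly along the files. The transcripts are listed in a fixed order that the files do not tie to genome positions, so no chromosome or gene is named. Taken in that order, 8700 transcripts with a mean footprint level over 4 log2 CPM and an RNA value fell into 87 windows of 100 consecutive transcripts. Among them 19.8% were called higher and 18.2% lower in footprints. The RNA shares over the same transcripts were not computed. RNA calls per window ran from 10 to 85 higher and from 2 to 61 lower. Over all 25744 transcripts tested in RNA, 18.1% were higher and 18.4% lower. That set includes transcripts below the footprint level required for the windows, so its shares are not a like background for the RNA calls per window. Footprint medians per window ran from -0.37 to 0.45, and 53 windows were within 0.1 of 0. In 10 windows the median was over 0.2. Their RNA median was over 0.1 in 5 and within 0.1 of 0 in the other 5. Of 8 windows under -0.2, the RNA median was under -0.1 in 2 and within 0.1 of 0 in the other 6. Neighbouring transcripts can share reads, so the transcripts of a window are not independent.

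Both windows with the highest footprint medians were high in RNA as well. In the window of rows 46112 to 49144, the median log2 CPM of footprints was 5.33 and 5.35 in naive and 5.84 and 5.81 in EIF4A1 KO libraries, and that of RNA was 5.33 and 5.28 in naive and 5.75 and 5.74 in EIF4A1 KO libraries. Footprints were called higher in 61 of its 100 transcripts and lower in 1, RNA higher in 74 and lower in 5. Its EIF4A2 KO footprints were at the naive level, with medians of 5.29 and 5.32. In the window of rows 197019 to 200025, footprint medians were 5.36 and 5.30 in naive and 5.85 and 5.81 in EIF4A1 KO libraries, with 66 transcripts called higher and 93 with a change above 0. RNA medians there were 5.45 and 5.36 in naive and 5.95 and 5.93 in EIF4A1 KO libraries, with 85 called higher and 2 lower. EIF4A2 KO footprints in this window were between the groups, at 5.68 and 5.68. The windows were picked for their footprint values, so their medians are given as a description with no test.

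The window with the lowest footprint median did not have that RNA pattern. In rows 200035 to 202187, footprint medians were 5.58 and 5.65 in naive and 5.48 and 5.40 in EIF4A1 KO libraries. Of its 100 transcripts 58 were called lower, and 11 had a footprint change above 0. Its RNA median change was -0.02, with 22 transcripts called higher and 32 lower. The median change of footprints was -0.37, and beyond RNA it was -0.34. Its transcripts had a median capture of 0.48. Other windows had an RNA median away from 0 and a footprint median near it. In rows 218691 to 221500 the RNA median was -0.29, the lowest of the 87 windows, and the footprint median -0.04. In rows 112127 to 114250 they were -0.21 and 0.01.

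**Figure D5:**
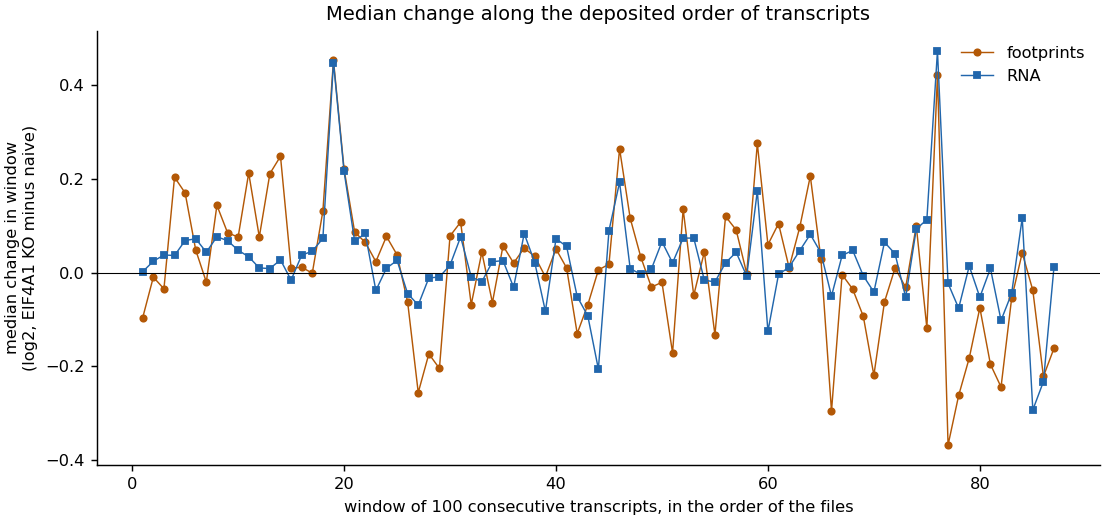
Median log2 change of footprints (orange circles) and RNA (blue squares) in EIF4A1 KO against naive cells for 87 windows of 100 consecutive transcripts in the order of the files. Both assays peak together at windows 19 and 76 (0.45 and 0.42 in footprints), and the lowest footprint median, -0.37 at window 77, has an RNA median of -0.02.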

How the data were processed

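Ribosome profiling, RNA-seq and RNA pulldown libraries were analysed from 1 table per library of raw counts per Ensembl transcript, deposited by the authors as whole numbers with no scaling. The only other measure the authors deposited is a length per transcript, given for 100283 of 227264 transcripts, below 0 in 313 of them, with a unit not given in the sources used here. Per the submitters' processing notes, CASAVA 1.8, STAR 2.7.0a and the build hg38 were used; the counting tool and annotation are not given in the sources used here. Per the labels' protocols, RNA-seq and pulldown libraries came from a stranded mRNA kit.

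Transcripts with equal counts in all files were merged. In order of total count, a transcript was dropped if its log2 CPM (0.5 added to counts) correlated at 0.9 or more with a kept one within 10 distinct transcripts of it. This replaced the planned 1 transcript per gene, since no table paired transcripts with genes. For the same reason gene lists, cell markers and sums per gene were not used.

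Comparisons were fitted with edgeR 4.0.16 under R 4.3.3 (TMM, filterByExpr with a minimum count of 10 and total of 15, glmQLFit, glmQLFTest, two-sided, Benjamini-Hochberg over all tested transcripts, threshold 0.05), with 1 mean per group: 4 footprint libraries, 4 RNA libraries, and all 8 with the interaction of assay and genotype. The EIF4A2 KO values came from a fit of the 6 DMSO footprint libraries. Each SE is the absolute log2 change divided by the square root of the test's F statistic, and can be too small at low counts. The procedure was tested on simulated data. CPM are counts over TMM-scaled totals; medians of levels per library used log2 of CPM plus 0.5. The transcript IDs are the 2 calls with the largest rise and the 2 with the largest fall at 10 CPM or more in the higher group and with groups that do not overlap. Alternatives were DESeq2 1.42.0, its size factors, other filters, no TMM, all distinct transcripts, all 6 DMSO footprint libraries, a replicate block and leaving out each library. The comparison, the classes and the windows were chosen with earlier results of these data known.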

Additional observations from a re-analysis of the deposited data

Results flagged for a closer look

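In 2 of the 4 transcripts given by ID, the change of footprints differed from the change of RNA between EIF4A1 KO and naive cells by the interaction test of edgeR. For ENST00000323963.10 footprints rose more than RNA, by 1.33 ± 0.07 on the log2 scale (SE; adjusted p = 4.02e-28), and leaving out any 1 of the 8 libraries gave values from 1.15 to 1.42. For ENST00000402252.6 footprints fell less than RNA, a difference of 4.23 ± 1.03 (SE; adjusted p = 0.00232), which rests on 3 and 3 footprint counts and 1 and 3 RNA counts in EIF4A1 KO libraries.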

How the results depend on the processing

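The number of transcripts called in footprints, 4548, was 1810 by DESeq2's Wald test, all of them among the 4548, with no adjusted p for 7378 transcripts. It was 13585 with all distinct transcripts tested, many of which share reads, and 2546 to 3816 with 1 library left out. In RNA, DESeq2 called 5441, all distinct transcripts gave 26611, and leaving out 1 library gave 7414 to 8279. Beyond RNA, all distinct transcripts gave 7223 and leaving out 1 library gave 1512 to 2458; the share of higher calls went from 39.5% to between 25.2% and 29.0% when a footprint library was left out, and the cause was not tested. DESeq2 size factors, no filter and, for footprints, at least 50 counts, library totals without TMM and the 6 DMSO libraries kept the counts within 1.5 times. Without TMM 56.1% of footprint calls were higher, against 48.7%. The replicate block gave 4448, 8999 and 2025 calls. The labels do not say whether equal replicate numbers pair the samples. The differences between replicates 1 and 2 correlated at -0.04 between naive and EIF4A1 KO footprints and at -0.09 in RNA. No shared effect of the replicate number was thus seen, which cannot exclude pairing.

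The median change of the longest minus the shortest class, 0.27, was 0.30 over all distinct transcripts, 0.36 with at least 50 counts, 0.34 with no filter and 0.26 to 0.29 with 1 library left out. The highest minus the lowest capture group, -0.43, was -0.37 with at least 50 counts, -0.36 with groups formed within those, and -0.46 to -0.38 with 1 library left out; it was not run on all distinct transcripts. These contrasts and windows of other sizes were tried after the data had been seen. Windows of 50 and 200 transcripts had highest medians of 0.53 and 0.35. The footprint changes of the 4 transcripts given by ID kept their direction in every alternative run in which they were tested. In such runs that left out no library they also kept their call. With at least 50 counts in each library only ENST00000323963.10 was tested. The difference from RNA, not called in either, ranged from -0.23 (without EIF4A1 KO footprint replicate 1) to 0.47 with 1 library left out for ENST00000254528.4. For ENST00000255531.8 it ranged from -1.22 to 0.30 (without that same library) and was 0.04 without EIF4A1 KO RNA replicate 1. Sums per gene were not run.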
